A study of Saccharomyces cerevisiae with 24 samples.

Results

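The genes described here take up sulfate, reduce it to sulfide, build methionine, cysteine and S-adenosylmethionine from it, carry methionine and related compounds into the cell, and regulate these steps in the budding yeast Saccharomyces cerevisiae. They were listed by symbol and number 33 of the 5449 genes tested, each measured by 1 probe set. No measured value entered the choice of probe set, other than that a gene with several would have been represented by the brightest, and none of the 33 had several.

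Sulfate enters through the permeases Sul1 and Sul2, is activated to a phosphoadenylyl form and is then reduced to sulfite and to sulfide. Sulfide is joined to O-acetylhomoserine to give homocysteine, which either receives a methyl group to become methionine or passes to cysteine by transsulfuration. Methionine becomes S-adenosylmethionine, the donor of most cellular methyl groups, and the by-product S-adenosylhomocysteine is returned to homocysteine, which closes the methyl cycle. One large consumer of those methyl groups is the methylation of phosphatidylethanolamine to phosphatidylcholine, a route that external choline bypasses. The activator Met4, working with the DNA-binding proteins Cbf1, Met31 and Met32 and the cofactor Met28, turns the pathway on when sulfur compounds run low, and the ubiquitin ligase subunit Met30 restrains Met4.

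Total RNA from steady-state chemostat cultures on minimal medium was hybridised to 24 Affymetrix arrays. A chemostat is a continuous culture in which the supply of 1 limiting nutrient holds growth back. Each of the 8 groups held 3 arrays. The strain was either labelled Reference or was the snf1 mutant, the culture was limited for carbon (C) or nitrogen (N), and the medium was low or high in inositol-choline. SNF1 encodes the yeast AMP-activated protein kinase, which cells need to use carbon sources other than glucose. The series names the mutation a deletion. The sources used here give no strain background, dilution rate or concentration, and no label says that the 3 replicates of a group were separate cultures, so the p-values measure the spread between arrays.

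The SNF1 probe set lay between 4.95 and 5.02 on the 12 arrays of the mutant and between 7.09 and 8.47 on the 12 of the reference strain. All values are on the deposited log scale, read as log2. For 6 arrays of the mutant the title says N and the description says C-limited. They were grouped by title. DAL5, an allantoate permease gene that is repressed by good nitrogen sources, lay between 10.85 and 11.72 on these 6 arrays, 11.31 and 11.97 on the other N-limited arrays, and 6.83 and 7.13 on the 12 C-limited arrays.

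Replicate 1 of the N-limited, high inositol-choline group stood apart in both strains. The signal of 7 control genes at the 3' end minus that at the 5' end, which grows as RNA is shorter or less completely copied, was 2.74 and 2.67 on these arrays and between 0.91 and 1.68 on the other 10 high inositol-choline arrays. It was between 0.74 and 0.93 on the 12 low inositol-choline arrays. The median SD of the 33 genes was 0.252 and 0.272 in the groups that hold these arrays, against 0.0309 to 0.0842 in the other 6. One variance per gene was estimated over all 24 arrays, so these arrays widen the errors of every comparison, and counts without them are given for each comparison.

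Differences were tested with limma, with p-values adjusted over the 5449 genes by the Benjamini-Hochberg method, and a gene was called at an adjusted p under 0.05. The text gives log2 differences with their standard errors. "Rose", "fell", "higher" and "lower" for a gene or a count refer to called genes unless values alone are given. Array values are listed in the order of replicates 1, 2 and 3. None of the 33 genes was below the array's background level on any array. Counts on leaving out single arrays are given without the share of all genes called. Their shifts are not read as results about the 33 genes.

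The 33 genes varied more than the bulk of the genome. The range of the 8 group means had a median of 0.79 over the 33 and of 0.54 over all tested genes, and it was over 1 for 10 of the 33 (30.3%) against 15.6% of all genes. The widest ranges were those of MMP1 at 2.70 (6.50-fold) and SUL1 at 2.22 (4.67-fold). MET13, SAM2, MUP3, SAM3, STR3, SUL2, MUP1 and CYS4 followed with 1.38 to 1.04. The lowest means of MET13, SAM2 and STR3 were those of groups that hold an array of low 5' signal. So were the highest means of MUP3, SAM3 and MUP1. Ranges without these arrays were not computed. The narrowest were those of the regulators MET31 at 0.28 and CBF1 at 0.30, which were also the dimmest of the 33 genes (means of 6.87 and 6.54). The regulators MET32 and MET28 had ranges of 0.68 and 0.76. The reference strain under carbon limitation and low inositol-choline was the lowest of the 8 groups for 18 of the 33 (54.5%), against 20.7% of all genes. The highest group was most often the mutant at high inositol-choline, under carbon limitation for 9 genes (27.3%, against 13.6% of all genes) and under nitrogen limitation for 8 (24.2%, against 15.0%).

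**Figure D1:**
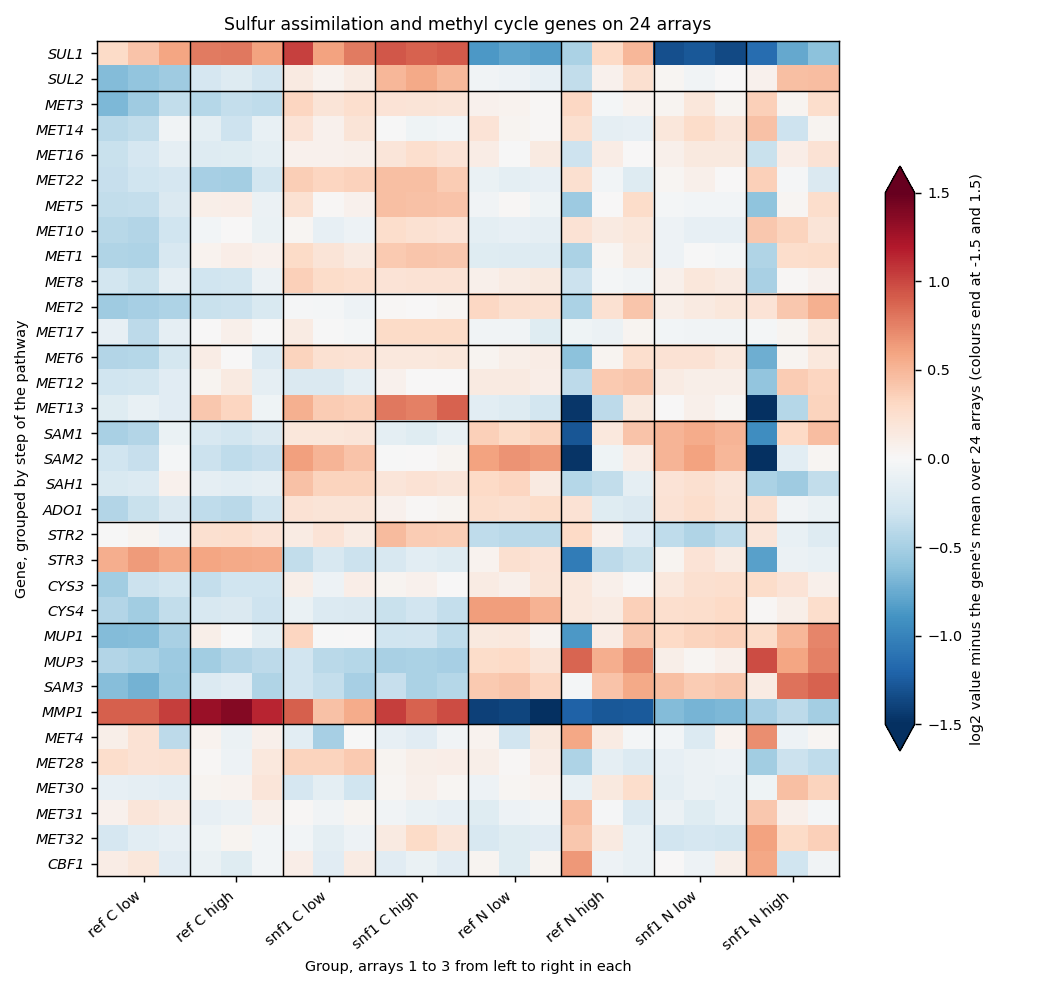
Log2 value of each of the 33 genes on each of the 24 arrays, minus that gene's mean over the arrays, with arrays in 8 groups of 3 and genes ordered by step of the pathway. The C-limited reference strain at low inositol-choline has the lowest mean of the 8 groups for 18 genes, and MMP1 and SUL1 have the widest ranges of group means.

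The first question was what loss of SNF1 did to these genes when carbon was limiting. At low inositol-choline most of the sulfate route was more highly expressed in the mutant: 16 of the 33 genes rose and 2 fell. Over all genes 34.4% were called, 20.2% higher and 14.3% lower. The median difference was 0.37 over the 33 genes and 0.05 over all tested genes. The called rises ran from the sulfate permease to the methyl cycle, and none of the 6 regulators was called.

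MET3 encodes ATP sulfurylase, which activates sulfate. Its arrays read 9.16, 9.30 and 9.46 in the C-limited reference strain at low inositol-choline and 10.16, 10.03 and 10.09 in the mutant. All 3 mutant arrays lay above all reference arrays, a difference of 0.79 ± 0.0854 (1.72-fold, adjusted p = 4.53e-07). SUL2, one of the sulfate permease genes, read 8.28, 8.34 and 8.40 in the reference strain and 9.06, 8.98 and 9.05 in the mutant. The groups did not overlap and differed by 0.69 ± 0.112 (1.61-fold, adjusted p = 6.91e-05). The other permease gene, SUL1, differed by 0.37 ± 0.176 and was not called, with an adjusted p of 0.12.

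Of the 8 genes of sulfate activation and reduction, 7 rose in the mutant. MET22 encodes the phosphatase that removes the by-product of reduction, 3'-phosphoadenosine 5'-phosphate, and rose by 0.64 ± 0.109 (adjusted p = 0.000107). MET14, the kinase gene of the next activation step, and MET16, the reductase gene that makes sulfite, rose by 0.43 ± 0.137 and 0.31 ± 0.108. MET10, which encodes a sulfite reductase subunit, rose by 0.34 ± 0.0547. MET1 and MET8, whose products make the siroheme that sulfite reductase needs, rose by 0.58 ± 0.150 and 0.54 ± 0.108. The eighth gene, MET5, encodes the other sulfite reductase subunit. It differed by 0.41 ± 0.174 with an adjusted p of 0.074.

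Downstream, both genes of sulfide incorporation rose, MET2 (homoserine O-acetyltransferase) by 0.46 ± 0.139 and MET17 (O-acetylhomoserine sulfhydrylase) by 0.25 ± 0.0677. MET6, the methionine synthase gene, read 10.79, 10.80 and 10.96 in the reference strain and 11.56, 11.46 and 11.44 in the mutant, a rise of 0.64 ± 0.188 (adjusted p = 0.0124). In the methyl cycle, SAH1, which encodes S-adenosylhomocysteine hydrolase, rose by 0.49 ± 0.0778, and ADO1, which encodes the adenosine kinase that clears its other product, by 0.54 ± 0.0924. The S-adenosylmethionine synthetase genes SAM1 and SAM2 differed by 0.52 and 0.74 with standard errors of 0.325 and 0.364, and were not called. Whether the probe sets tell these close paralogues apart was not tested.

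The transsulfuration genes split. CYS4 and CYS3, which carry homocysteine sulfur to cysteine, rose by 0.27 ± 0.0675 and 0.41 ± 0.0663. STR3, which encodes the cystathionine beta-lyase of the opposite direction, read 8.99, 9.08 and 9.01 in the reference strain and 8.07, 8.20 and 8.12 in the mutant. Every mutant array lay below every reference array, and STR3 fell by 0.90 ± 0.162 (1.86-fold, adjusted p = 0.000198). STR2, the cystathionine gamma-synthase gene, was not called at 0.17 ± 0.0913. Among the permeases, MUP1, for methionine at high affinity, rose by 0.69 ± 0.201, and MMP1, for S-methylmethionine, fell by 0.31 ± 0.0881 with 1 mutant array at the level of the reference arrays.

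At high inositol-choline under carbon limitation, 10 of the 33 genes were higher in the mutant and 2 lower, against 32.8% of all genes called (18.0% higher and 14.8% lower). Medians were 0.19 over the 33 and 0.03 over all genes. All 12 had been called in the same direction at low inositol-choline. MET22 gave the largest rise, from 8.94, 8.92 and 9.16 to 9.88, 9.88 and 9.82, or 0.85 ± 0.109 (1.80-fold, adjusted p = 4.19e-06). SUL2 rose by 0.77 ± 0.112, MET3 by 0.59 ± 0.0854, MET8 by 0.43 ± 0.108 and ADO1 by 0.40 ± 0.0924. STR3 fell by 0.77 ± 0.162 and MMP1 by 0.31 ± 0.0881. Low and high inositol-choline arrays are separate samples of both strains, and the difference between the 2 strain effects under carbon limitation was called for 1 gene of the 33, CYS4, at -0.35 ± 0.0954 (adjusted p = 0.0445, with 4.15% of all genes called, 1.85% higher and 2.29% lower). CYS4 differed between strains by 0.27 at low and by -0.07 at high inositol-choline, and the call was lost on leaving out any of 16 arrays, with an adjusted p of up to 0.136.

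Without the arrays of low 5' signal, 26 of the 33 genes were called at low inositol-choline (58.5% of all genes) and 21 at high (56.8%), and every gene named as called in these comparisons remained so. Leaving out single arrays of the compared groups ended the calls of MET14, MET16, MET17, MUP1 and MMP1 at low and of MMP1 at high inositol-choline, with adjusted p-values of up to 0.132. MET17 was 0.16 higher in the mutant without replicate 2 of the reference strain, against 0.25 with it, and MMP1 at low inositol-choline had an adjusted p of 0.0861 at most.

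**Figure D2:**
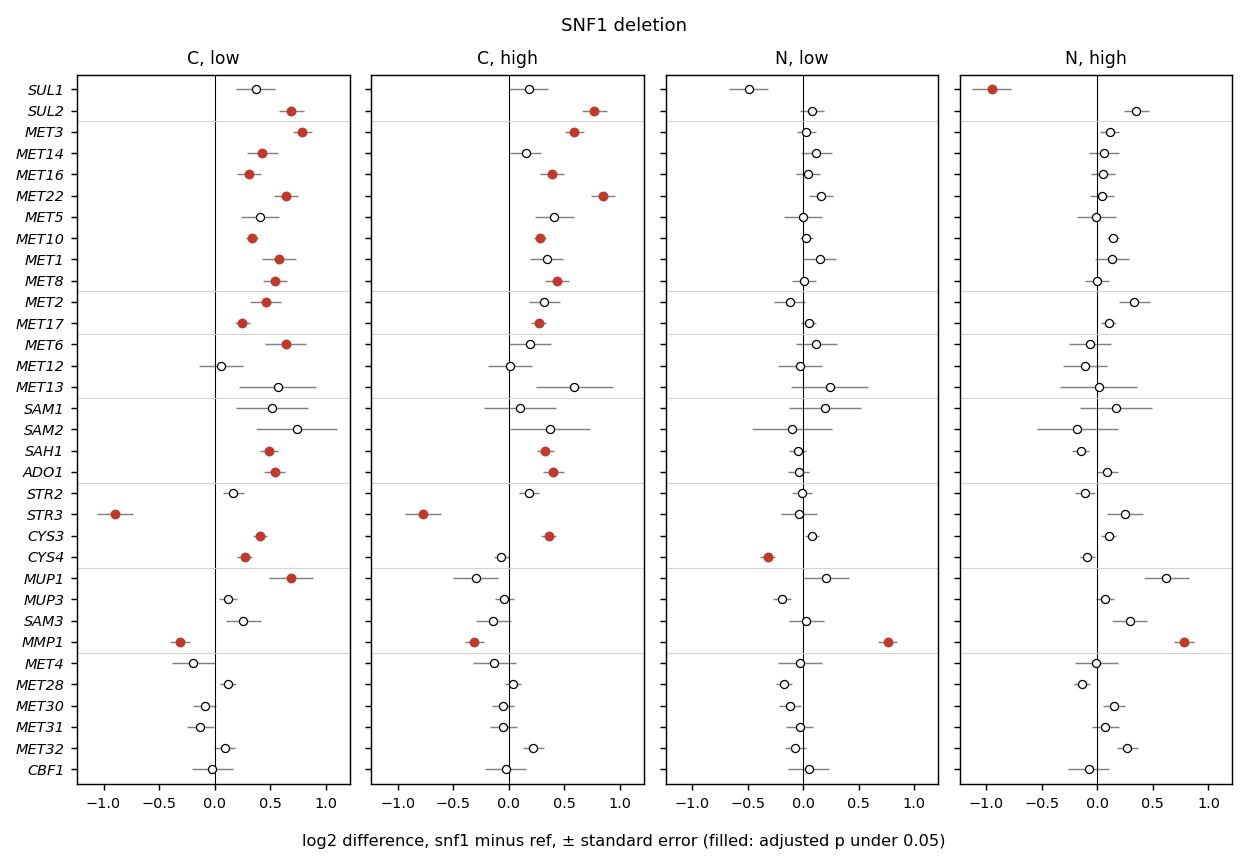
Log2 difference between the snf1 mutant and the reference strain for each of the 33 genes, with standard errors, in the 4 combinations of limitation and inositol-choline (3 arrays a group; filled points have an adjusted p under 0.05). Of the 33 genes, 18 were called under carbon limitation at low inositol-choline and 12 at high, against 2 in each nitrogen-limited panel, all without a replicate block. Over all tested genes 34.4% and 32.8% were called under carbon limitation at low and high inositol-choline. Under nitrogen limitation the shares were 9.73% and 4.15%.

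Under nitrogen limitation the number of genes that separated the strains depended on the model. Without a replicate block, on all 24 arrays, 1 was higher and 1 lower at low inositol-choline, with 9.73% of all genes called (4.72% higher and 5.01% lower), and at high inositol-choline again 1 and 1, with 4.15% called (2.17% higher and 1.98% lower). Same-numbered replicates deviated together in these groups, and a fit blocked on replicate, on the arrays compared, called 15 genes at low inositol-choline (8 higher and 7 lower, with 51.0% of all genes called) and 3 at high (2 higher and 1 lower, with 3.93%). MMP1 was the gene called higher without the block at both levels. It read 6.0, 6.02 and 5.88 in the reference strain and 6.75, 6.70 and 6.72 in the mutant at low inositol-choline, and 6.19, 6.13 and 6.14 against 6.90, 7.01 and 6.89 at high. The groups did not overlap in either, and MMP1 rose by 0.76 ± 0.0881 (adjusted p = 6.23e-06) and 0.78 ± 0.0881 (adjusted p = 1.23e-05). The N-limited reference values of MMP1 were close to the background level of their arrays (5.58 at low, 5.56 to 5.62 at high). Under carbon limitation the same gene had been lower in the mutant.

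CYS4 fell in the N-limited mutant at low inositol-choline, from 10.57, 10.57 and 10.46 to 10.19, 10.21 and 10.24, or by 0.32 ± 0.0675 (adjusted p = 0.00323). SUL1 fell at high inositol-choline, from 9.01, 9.79 and 9.98 to 8.34, 8.72 and 8.87. The reference array of 9.01 is the array of low 5' signal, and it still lay above the mutant arrays. The difference was -0.95 ± 0.176 (1.93-fold, adjusted p = 0.00308). At low inositol-choline SUL1 differed by -0.49 ± 0.176 with an adjusted p of 0.0921.

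The blocked fit left 2 residual degrees of freedom, so its small errors lean heavily on the variance that limma shares over genes. With the block at low inositol-choline, SUL1, not called in the main fit, differed by -0.49 ± 0.0316 (limma adjusted p = 2.16e-08). MET13 differed by 0.24 ± 0.0349, MUP1 by 0.21 ± 0.036, SAM1 by 0.20 ± 0.0343 and MUP3 by -0.19 ± 0.0348. MMP1 and CYS4 were called in the direction given above, and the other 8 differed by 0.17 or less in either direction. At high inositol-choline MMP1 and SUL2 (0.35 ± 0.0579) were higher and SUL1 lower. Without a block but on the same arrays, limma called 13 genes (45.9% of all genes) and 0 (0.0918% of all genes, with 2 of the 33 at an unadjusted p under 0.05), and leaving out the arrays of low 5' signal gave 6 and 8 (28.5% and 9.67% of all genes). Leaving out replicate 1 of the reference strain at high inositol-choline alone gave 4 and 4, leaving out its replicate 3 gave 5 at high, and leaving out replicate 1 of the mutant gave 6 at high. The shares of all genes are not given for these single arrays.

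Whether loss of SNF1 acted differently under the 2 limitations was tested as an interaction. At low inositol-choline 13 of the 33 genes were called, against 19.5% of all genes (8.74% higher and 10.8% lower), and at high inositol-choline 7, against 20.6% (9.95% and 10.6%). In 11 of the 13 the difference between mutant and reference strain was more positive under carbon than under nitrogen limitation. The effect of the mutation on CYS4 was lower under nitrogen than under carbon limitation by 0.59 ± 0.0954 (adjusted p = 0.000107), and that on MET3 by 0.75 ± 0.121 (adjusted p = 0.00011). SUL1, SUL2, MET2, MET8, MET10, MET22, SAH1, ADO1 and CYS3 gave interactions of the same sign, from -0.31 to -0.86. MMP1 and STR3 went the other way, with 1.06 ± 0.125 (adjusted p = 2.29e-06) and 0.86 ± 0.229 (adjusted p = 0.0104).

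At high inositol-choline the interaction was called for SUL1 at -1.13 ± 0.248, MET22 at -0.81 ± 0.155, SAH1 at -0.49 ± 0.11 and MET3 at -0.48 ± 0.121. STR3, MUP1 and MMP1 were called with the opposite sign at 1.02 ± 0.229, 0.92 ± 0.284 and 1.08 ± 0.125. For MUP1 the N-limited reference arrays read 7.17, 8.14 and 8.43, and without the first of these, the array of low 5' signal, the interaction was 0.54. Without the pair of low 5' arrays 23 genes were called at low and 18 at high (41.2% and 38.0% of all genes). At high inositol-choline 12 were called without replicate 1 of either N-limited group, and MUP1 had adjusted p-values of up to 0.0659 when single arrays were left out. At low inositol-choline single arrays ended the calls of SUL1, MET2, MET22 and CYS3, with adjusted p-values of up to 0.0917. The call of MET2 was lost on leaving out any of 19 arrays, and also with centring on the array median. That of MET22 was lost for any of 10 arrays.

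The next question was how the limiting nutrient affected the genes. The comparisons of strains and of limitations use the same 8 groups of arrays, so they are not independent of each other. In the reference strain at low inositol-choline 14 of the 33 genes rose and 4 fell under nitrogen limitation, against 44.3% of all genes called (25.1% higher and 19.1% lower). Medians were 0.32 over the 33 and 0.04 over all genes. The largest falls were those of permease genes.

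MMP1 read 8.29, 8.30 and 8.43 in the C-limited reference strain at low inositol-choline and 6.0, 6.02 and 5.88 under nitrogen limitation. The groups were far apart, and MMP1 fell by 2.37 ± 0.0881 (5.18-fold, adjusted p = 2.2e-14). Its N-limited values were close to the background level of these arrays, 5.58. The part of low signal in the size of the fall was not tested. SUL1 read 9.77, 9.91 and 10.08 under carbon limitation and 8.63, 8.70 and 8.66 under nitrogen limitation, a fall of 1.25 ± 0.176 (2.39-fold, adjusted p = 7.44e-06). SUL2 moved against SUL1, and rose by 0.50 ± 0.112 from 8.28, 8.34 and 8.40 to 8.88, 8.85 and 8.80. Both encode sulfate permeases.

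The other permease genes rose. SAM3, for S-adenosylmethionine, read 7.86, 7.79 and 7.94 under carbon and 8.89, 8.92 and 8.82 under nitrogen limitation, a rise of 1.01 ± 0.155 (2.02-fold, adjusted p = 2.15e-05). MUP3, for methionine at low affinity, rose by 0.74 ± 0.0822 from 8.09, 8.05 and 7.98 to 8.80, 8.83 and 8.72. MUP1 rose by 0.71 ± 0.201. In each of these the C-limited arrays lay below all N-limited ones.

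CYS4, the cystathionine beta-synthase gene, gave the largest rise, from 9.50, 9.42 and 9.57 to 10.57, 10.57 and 10.46, or 1.04 ± 0.0675 (2.05-fold, adjusted p = 1.3e-10). CYS3, which takes cystathionine on to cysteine, rose by 0.50 ± 0.0663. STR2 and STR3, the genes of the route from cysteine back to homocysteine, fell by 0.38 ± 0.0913 and 0.42 ± 0.162. Within transsulfuration the genes toward cysteine and those away from it thus had opposite signs. Of the genes of sulfate activation and reduction, 5 of 8 rose (MET3 by 0.57 ± 0.0854, MET8 by 0.37 ± 0.108, MET14 by 0.36 ± 0.137, MET16 by 0.32 ± 0.108 and MET10 by 0.25 ± 0.0547). MET2 rose by 0.75 ± 0.139, ADO1 by 0.59 ± 0.0924 and SAH1 by 0.38 ± 0.0778. Leaving out single arrays ended the calls of STR3, MET14 and MET16, with adjusted p-values of up to 0.146, and that of STR3 for any of 16 arrays. Without the pair of low 5' signal 28 of the 33 genes were called, with 65.8% of all genes.

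In the reference strain at high inositol-choline, 9 of the 33 genes rose and 4 fell under nitrogen limitation, against 52.3% of all genes called (31.4% higher and 20.9% lower), with medians of 0.12 over the 33 and 0.06 over all. MMP1 fell by 2.51 ± 0.0881 (5.71-fold), from 8.69, 8.78 and 8.54 to 6.19, 6.13 and 6.14. MUP3 rose by 1.15 ± 0.0822 (2.22-fold), from 8.01, 8.09 and 8.14 to 9.40, 9.07 and 9.23. STR3 fell by 1.16 ± 0.162 (2.24-fold), from 9.03, 9.01 and 9.0 to 7.39, 8.05 and 8.11. In all 3 genes the groups were separate.

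SAM3 rose by 0.60 ± 0.155 there, MET3 by 0.51 ± 0.0854, CYS4 by 0.47 ± 0.0675, MET22 by 0.42 ± 0.109 and CYS3 by 0.41 ± 0.0663. SUL1 fell by 0.62 ± 0.176 and MET28, the Met4 cofactor gene, by 0.30 ± 0.0711. MET2 was called at 0.35 ± 0.139 with overlapping groups, since its array of low 5' signal read 8.69 and the others 9.39 and 9.58. Without that array SUL1 differed by -0.32 (adjusted p = 0.0413), MET2 by 0.62, and ADO1 by 0.16 (adjusted p = 0.0803), against 0.30 with it. With the 3' minus 5' signal as a covariate SUL1 differed by -0.19 (adjusted p = 0.127), ADO1 by 0.08 (adjusted p = 0.241), MET22 by 0.15, STR3 by -0.75, MET28 by -0.18, MET2 by 0.71 and SAM3 by 0.99. MET2 differed by 0.17 (adjusted p = 0.251) without replicate 3 of the N-limited group. On the arrays compared alone, 7 genes were called (29.3% of all genes), and without the pair of low 5' signal, 22 (66.1%).

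In the mutant at low inositol-choline, nitrogen limitation raised 5 of the 33 genes and lowered 5, against 30.6% of all genes called (15.3% in each direction), with medians of -0.05 over the 33 and 0.03 over all. SUL1 had its largest fall here, from 10.51, 10.09 and 10.26 to 8.17, 8.21 and 8.13, and fell by 2.11 ± 0.176 (4.33-fold, adjusted p = 1.23e-08). MMP1 fell by 1.31 ± 0.0881, STR2 by 0.56 ± 0.0913, MET28 by 0.45 ± 0.0711 and MET22 by 0.31 ± 0.109. SAM3 rose by 0.79 ± 0.155, CYS4 by 0.44 ± 0.0675, STR3 by 0.44 ± 0.162, MUP3 by 0.43 ± 0.0822 and CYS3 by 0.18 ± 0.0663. Replicates of the same number deviated together in these groups too. With the replicate block 25 genes were called, 11 higher and 14 lower, with 66.5% of all genes called. Leaving out single arrays ended the calls of STR3, CYS3 and MET22, with adjusted p-values of up to 0.245. STR3 was lost on leaving out any of 18 arrays, CYS3 any of 17 and MET22 any of 6. Without the pair of low 5' signal 20 genes were called (53.5% of all genes).

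In the mutant at high inositol-choline, 5 of the 33 genes rose and 11 fell under nitrogen limitation, against 48.6% of all genes called (26.5% higher and 22.1% lower), with medians of -0.01 and 0.03. The rises were those of MUP3, SAM3, MUP1, CYS4 and MET2. MUP3 read 8.04, 8.06 and 8.03 under carbon and 9.51, 9.12 and 9.28 under nitrogen limitation, with no overlap, a rise of 1.26 ± 0.0822 (2.40-fold, adjusted p = 2.66e-10). SAM3 rose by 1.03 ± 0.155, MUP1 by 0.83 ± 0.201, CYS4 by 0.45 ± 0.0675 and MET2 by 0.36 ± 0.139.

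There SUL1 fell by 1.75 ± 0.176 (3.36-fold), MMP1 by 1.43 ± 0.0881 (2.69-fold), MET13 by 1.37 ± 0.347, SAH1 by 0.65 ± 0.0778 and MET5 by 0.54 ± 0.174. MET13 encodes a methylenetetrahydrofolate reductase, which supplies the methyl group for methionine. Its N-limited arrays read 6.59, 7.74 and 8.51, all below the C-limited 8.96, 8.93 and 9.06, and the first is the array of low 5' signal. Without it MET13 differed by -0.86 (adjusted p = 0.0194), MET5 by -0.29 (adjusted p = 0.107), MET1 by -0.14 (adjusted p = 0.34) and MET8 by -0.16 (adjusted p = 0.102), where MET1 and MET8 were at -0.38 and -0.34 with it. MET2 had adjusted p-values of up to 0.125 when single arrays were left out. With the 3' minus 5' signal as a covariate MET1 differed by -0.08 (adjusted p = 0.323), MET8 by -0.16 (adjusted p = 0.0698), MET5 by -0.19, MET13 by -0.64, MET22 by -0.59 and MET2 by 0.64. On the arrays compared alone 10 genes were called (30.4% of all genes), and without the pair of low 5' signal, 20 (64.4%).

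Side by side, MMP1 fell and MUP3, SAM3 and CYS4 rose in all 4 comparisons of limitation. SUL1 fell in all 4 as well, but in the reference strain at high inositol-choline it was not called with the 3' minus 5' covariate, on the arrays compared alone (adjusted p = 0.106) or with the replicate block (adjusted p = 0.108). At low and at high inositol-choline MMP1 differed by -2.37 and -2.51 in the reference strain and by -1.31 and -1.43 in the mutant. SUL1 differed by -1.25 and -0.62 in the reference strain and by -2.11 and -1.75 in the mutant. The interactions of strain and limitation given above test these differences. STR3 fell in the reference strain at both levels, rose in the mutant at low inositol-choline and was not called there at high (-0.14 ± 0.162).

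**Figure D3:**
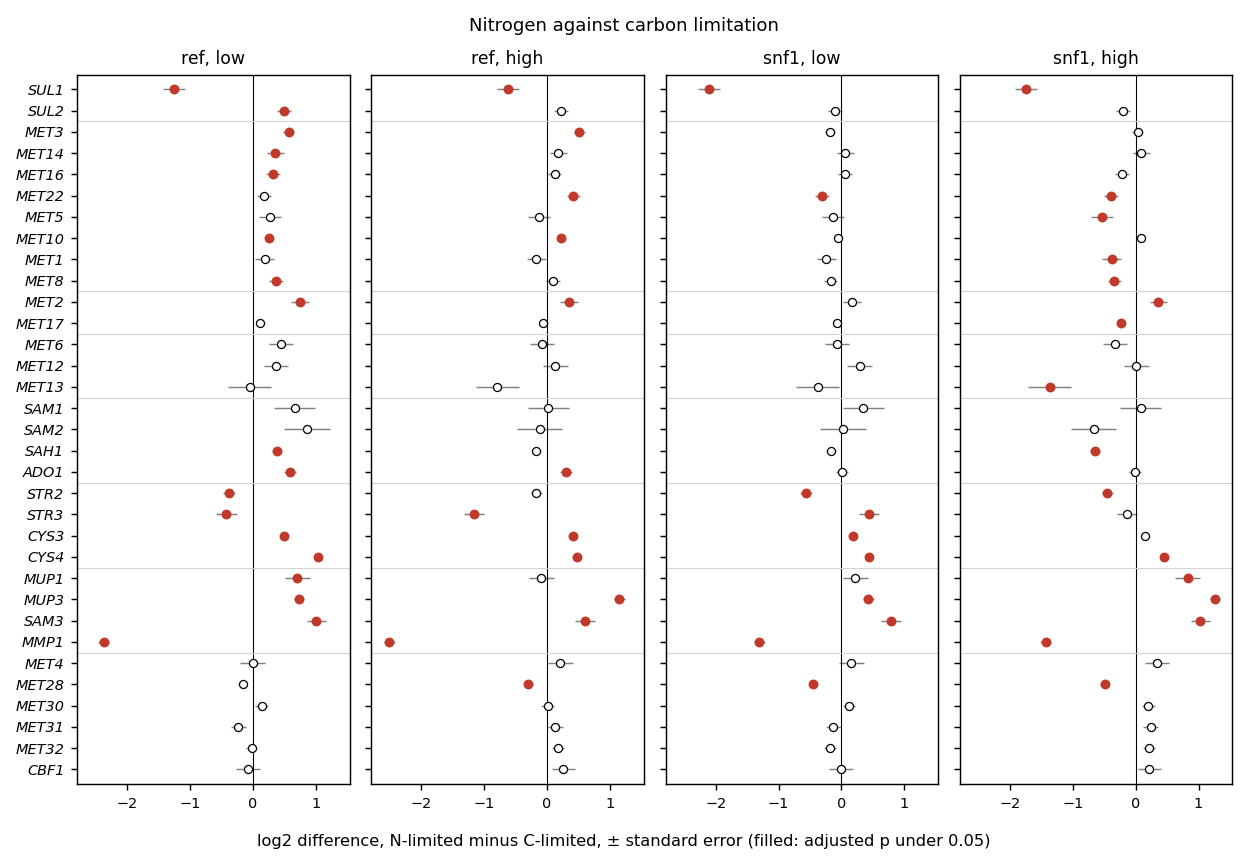
Log2 difference between nitrogen and carbon limitation for each of the 33 genes, with standard errors, in each strain at low and high inositol-choline (3 arrays a group; filled points have an adjusted p under 0.05). SUL1 and MMP1 are below 0 and MUP3, SAM3 and CYS4 above 0 as called genes in all 4 panels.

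**Figure D4:**
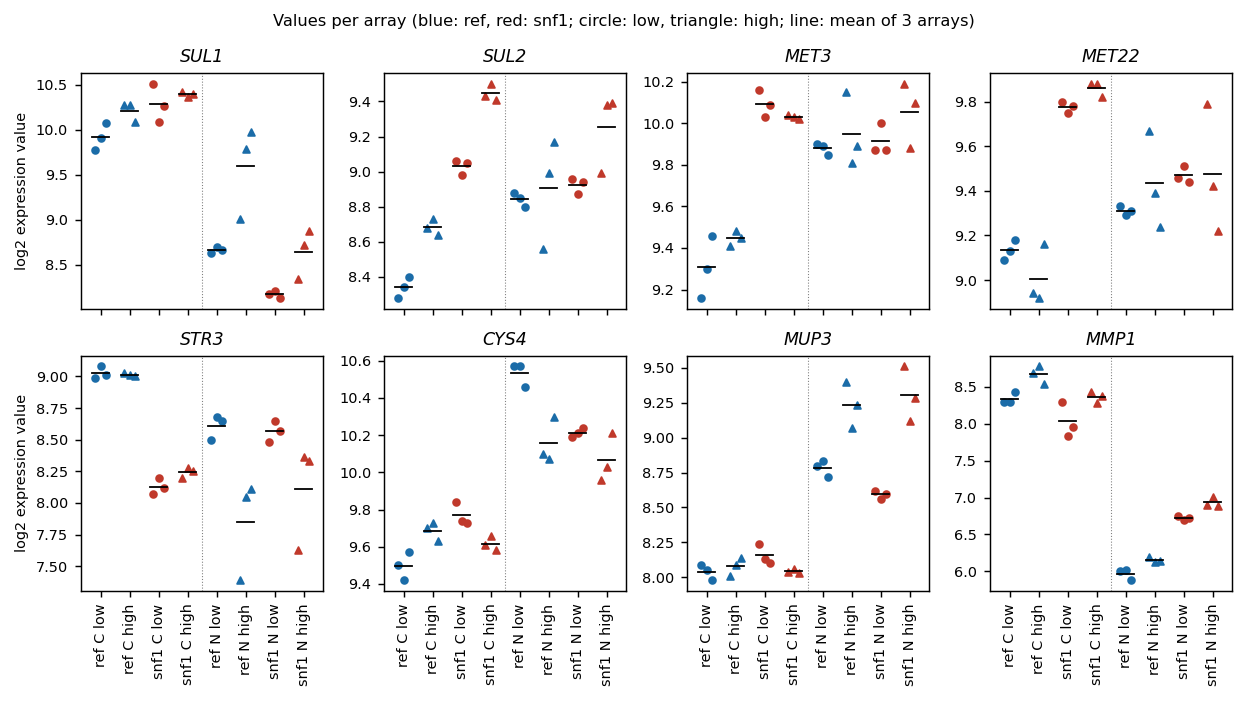
Log2 value of SUL1, SUL2, MET3, MET22, STR3, CYS4, MUP3 and MMP1 on each of the 24 arrays, by group, with 1 point per array and a line at the mean of each group of 3. The lowest point of SUL1 and of STR3 in each N-limited, high inositol-choline group is the array of low 5' signal, at 9.01 and 8.34 for SUL1 and 7.39 and 7.63 for STR3.

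The last question was the response to inositol-choline. Low and high arrays differed in the 3' minus 5' signal (0.74 to 0.93 and 0.91 to 2.74) and in the spiked control dap (5.44 to 5.95 and 5.63 to 7.28), and the part of these differences in the results was not tested beyond the values given here. INO1, the inositol-repressed gene of inositol synthesis, read 9.94 to 10.10 at low inositol-choline in the C-limited reference strain, with a mean of 9.94 ± 0.05 (SD, n = 3) at high. In the C-limited mutant it read 11.28 to 11.57 at low and 7.26 to 7.35 at high, in the N-limited reference strain 11.45 to 11.68 and 7.88 to 8.09, and in the N-limited mutant 11.21 to 11.32 and 7.04 to 8.02.

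In the C-limited reference strain 4 of the 33 genes rose at high inositol-choline and none fell, against 14.8% of all genes called (7.85% higher and 6.96% lower). Medians were 0.16 over the 33 and -0.02 over all genes. MET10 read 9.49, 9.47 and 9.61 at low and 9.87, 9.92 and 9.81 at high, without overlap, a rise of 0.35 ± 0.0547 (1.27-fold, adjusted p = 0.000893). SUL2 rose by 0.34 ± 0.112, MMP1 by 0.33 ± 0.0881 and MET17 by 0.24 ± 0.0677. This count was unstable: it ran from 1 to 11 on leaving out single arrays, with 1 without replicate 2 at low or replicate 1 or 2 at high, and 19 without the pair of low 5' signal (48.1% of all genes). Leaving out replicate 1 at low gave 2, replicate 3 of the N-limited reference strain at high 8, and replicate 1 of the N-limited reference strain and mutant at high 10 and 11. Only MET10 kept its call in each of these.

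In the C-limited mutant 6 of the 33 genes rose and 1 fell at high inositol-choline, against 23.4% of all genes called (10.2% higher and 13.2% lower), with medians of 0.06 and -0.01. SUL2 rose by 0.42 ± 0.112 from 9.06, 8.98 and 9.05 to 9.43, 9.50 and 9.41, with no overlap (adjusted p = 0.0103). MMP1 rose by 0.33 ± 0.0881, MET10 by 0.29 ± 0.0547, MET32 by 0.29 ± 0.0939, STR2 by 0.26 ± 0.0913 and MET17 by 0.26 ± 0.0677. MET28 fell by 0.27 ± 0.0711. MMP1 had overlapping groups (8.30, 7.84 and 7.96 against 8.43, 8.28 and 8.38). Leaving out replicate 2 or 3 at low inositol-choline each gave 4 called genes. Single arrays ended the calls of MMP1, MET32 and STR2 with adjusted p-values of up to 0.153, that of STR2 for any of 19 arrays. Without the pair of low 5' signal 19 genes were called (53.3% of all genes).

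**Figure D5:**
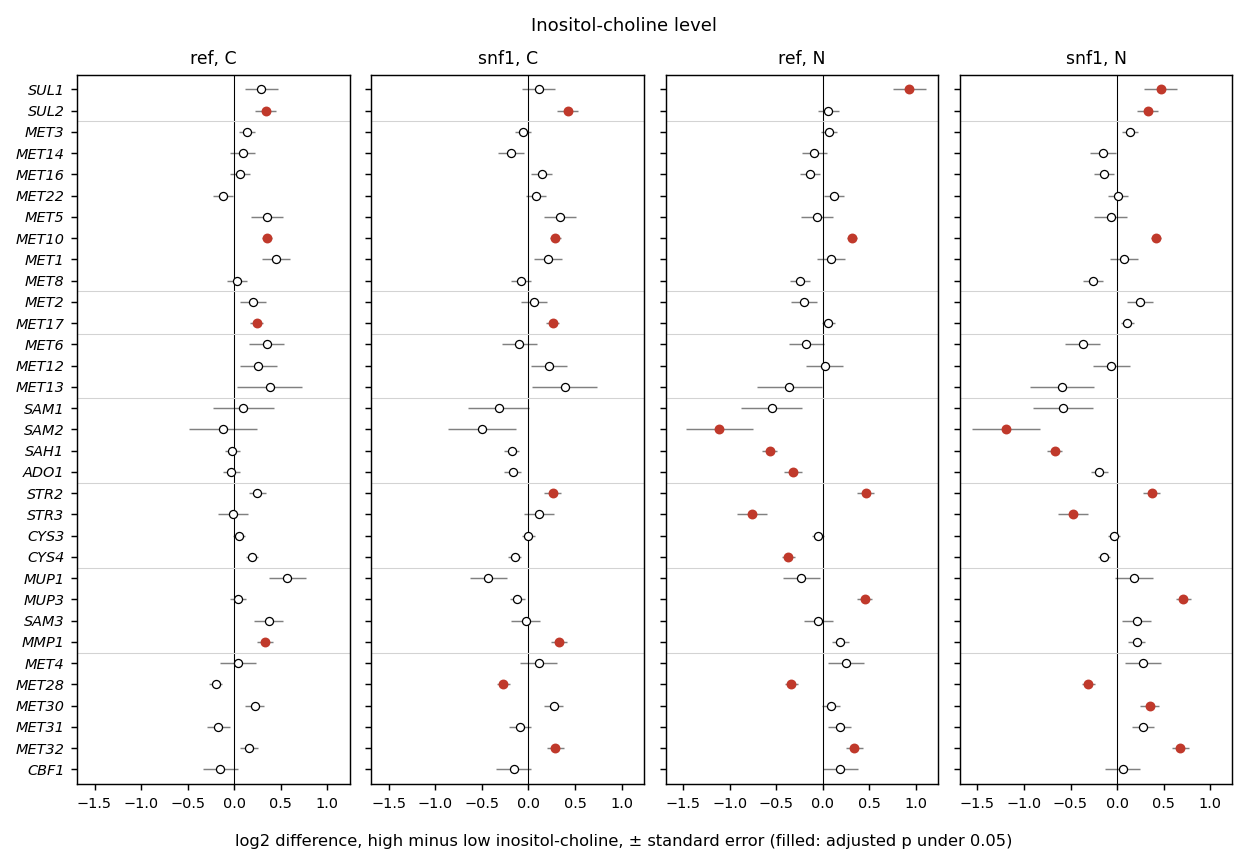
Log2 difference between high and low inositol-choline for each of the 33 genes, with standard errors, in each strain and limitation (3 arrays a group; filled points have an adjusted p under 0.05). MET10 is a called rise in all 4 panels, while SAM2, SAH1 and STR3 are called falls in the 2 nitrogen-limited ones. With the 3' minus 5' signal as a covariate, SAM2 in both strains and STR3 in the mutant were no longer called there.

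Under nitrogen limitation 5 of the 33 genes rose and 6 fell at high inositol-choline in the reference strain, against 31.5% of all genes called (16.6% higher and 14.9% lower), with medians of -0.05 and 0.03. In the mutant 7 rose and 4 fell, against 37.2% (19.5% higher and 17.7% lower), with medians of 0.06 and 0.02. In each strain 33.3% of the 33 genes were called, near these shares. Apart from that of MET28, the called falls lay in the methyl cycle and the transsulfuration genes. STR2, also a transsulfuration gene, rose in both strains. With the 3' minus 5' signal as a covariate, SAM2 in both strains and STR3 in the mutant were no longer called. These comparisons hold the arrays of low 5' signal: on the arrays compared alone limma called 0 of the 33 in the reference strain, where 13 had an unadjusted p under 0.05 and 2.57% of all genes were called, and 5 in the mutant (13.5% of all genes). Without the pair of low 5' signal 16 and 18 were called (43.9% and 52.0% of all genes).

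SAH1 read 11.02, 11.05 and 10.86 at low and 10.30, 10.35 and 10.59 at high inositol-choline in the N-limited reference strain, and 10.93, 10.96 and 10.91 against 10.25, 10.19 and 10.35 in the mutant. Low and high were separate in both strains, and the fall was 0.57 ± 0.0778 (1.48-fold, adjusted p = 4.33e-05) and 0.67 ± 0.0778 (1.59-fold, adjusted p = 4.26e-06). In the C-limited cultures SAH1 differed by -0.02 and -0.18 and was not called. The effect of inositol-choline on SAH1 was lower under nitrogen than under carbon limitation by 0.54 ± 0.11 (adjusted p = 0.00627) in the reference strain and by 0.49 ± 0.11 (adjusted p = 0.00474) in the mutant.

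SAM2 read 11.54, 11.61 and 11.58 at low and 9.47, 10.88 and 11.05 at high in the N-limited reference strain, and 11.45, 11.55 and 11.44 against 9.10, 10.78 and 10.97 in the mutant. All high arrays lay below all low ones, and the lowest value of each strain was on the array of low 5' signal. SAM2 fell by 1.11 ± 0.364 (adjusted p = 0.0276) and 1.19 ± 0.364 (adjusted p = 0.0149). Without these arrays it differed by -0.61 ± 0.0777 and -0.60 ± 0.0777 (adjusted p = 4.9e-06 and 2.91e-06). With the 3' minus 5' signal as a covariate the difference was 0.01 ± 0.131 in the reference strain and -0.10 ± 0.129 in the mutant. SAM1, its paralogue, differed by -0.55 ± 0.325 and -0.58 ± 0.325 and was not called.

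STR3 fell by 0.76 ± 0.162 in the N-limited reference strain, where it read 8.50, 8.68 and 8.65 at low and 7.39, 8.05 and 8.11 at high, and by 0.47 ± 0.162 in the mutant. In the mutant its difference without the array of low 5' signal was -0.23 (adjusted p = 0.205). With the 3' minus 5' signal as a covariate it was -0.29 in the reference strain and -0.01 (adjusted p = 0.917) in the mutant. CYS4 fell in the reference strain by 0.37 ± 0.0675, from 10.57, 10.57 and 10.46 to 10.10, 10.07 and 10.30. In the mutant it differed by -0.14 and was not called. ADO1 fell in the reference strain by 0.32 ± 0.0924, and MET28 fell in both, by 0.34 ± 0.0711 and 0.31 ± 0.0711. With the covariate ADO1 differed by -0.57, and MET28 by -0.20 and -0.17.

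The rises at high inositol-choline under nitrogen limitation included a sulfate and a methionine permease gene. SUL1 rose by 0.93 ± 0.176 (1.90-fold, adjusted p = 0.000777) in the reference strain, from 8.63, 8.70 and 8.66 to 9.01, 9.79 and 9.98, and by 0.47 ± 0.176 in the mutant, from 8.17, 8.21 and 8.13 to 8.34, 8.72 and 8.87. The low and high arrays were separate in both strains, and with the covariate SUL1 differed by 1.41 and 0.94. MUP3 rose by 0.45 ± 0.0822 in the reference strain and by 0.71 ± 0.0822 (1.63-fold, adjusted p = 4.24e-06) in the mutant, from 8.62, 8.56 and 8.60 to 9.51, 9.12 and 9.28. Its effect of inositol-choline was larger under nitrogen than under carbon limitation by 0.41 ± 0.116 (adjusted p = 0.0473) in the reference strain and by 0.83 ± 0.116 (adjusted p = 5.73e-05) in the mutant. The first of these was lost on leaving out any of 18 arrays, and with the covariate (0.28, adjusted p = 0.0528).

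Among the regulators MET32, a DNA-binding partner of Met4, rose by 0.34 ± 0.0939 in the reference strain and by 0.68 ± 0.0939 (1.60-fold, adjusted p = 2.5e-05) in the mutant, where it read 7.67, 7.70 and 7.68 at low and 8.56, 8.24 and 8.31 at high. In the reference strain it differed by 0.21 (adjusted p = 0.0708) without the array of low 5' signal. With the 3' minus 5' covariate it differed by 0.09 (adjusted p = 0.247) in the reference strain and by 0.44 in the mutant. MET30 rose in the mutant by 0.35 ± 0.1. STR2 rose by 0.46 ± 0.0913 and 0.37 ± 0.0913, and SUL2 rose in the mutant by 0.33 ± 0.112. With the covariate STR2 differed by 0.20 and, in the mutant, by 0.12 (adjusted p = 0.0641), and there SUL2 by 0.64 and MET30 by 0.60. MET10 rose by 0.31 ± 0.0547 in the reference strain and by 0.42 ± 0.0547 in the mutant, so that it was called in the same direction in all 4 comparisons of inositol-choline.

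The falls and rises of the N-limited strains were compared with each other by the interaction of strain and inositol-choline, for which limma called 0 of the 33 genes, against 2.07% of all genes, 1.05% higher and 1.03% lower (4 of the 33 had an unadjusted p under 0.05). Without the pair of low 5' signal 5 were called (7.40% of all genes), and 2 and 1 without replicate 1 of the reference strain and of the mutant. The interaction of limitation and inositol-choline was called for 3 genes in the reference strain (SAH1, MUP3 and CYS4 at -0.57 ± 0.0954, with 4.94% of all genes called, 2.73% higher and 2.20% lower) and for 2 in the mutant (SAH1 and MUP3, with 15.0% of all genes called, 8.96% higher and 6.07% lower). Without replicate 3 of the N-limited reference strain at high, 7 were called in the reference strain. In the mutant 6 were called without replicate 1 of the N-limited reference strain, and 4 and 5 without replicates 2 and 3 of the N-limited mutant, all at high inositol-choline. The pair of low 5' signal left out gave 8 and 11 (16.1% and 32.8% of all genes). For the N-limited reference strain's response to inositol-choline, single arrays ended the calls of ADO1, MET32 and SAM2, with adjusted p-values of up to 0.182. For that of the mutant they ended those of SUL1, SUL2, SAM2, STR3 and MET30, with up to 0.205, and 17 genes were called without replicate 1 of the reference strain at high.

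Outside the 33 genes, 35 others of sulfur, homoserine, folate and phospholipid metabolism were counted. In the C-limited mutant at low inositol-choline 12 of them rose and 4 fell, where 20.2% of all genes were higher and 14.3% lower. HOM3 and HOM6, which encode aspartate kinase and homoserine dehydrogenase on the way to the O-acetylhomoserine that takes up sulfide, rose by 0.53 ± 0.0851 and 0.40 ± 0.0536. TRR1, the thioredoxin reductase gene, rose by 0.52 ± 0.0733. Thioredoxin is the reductant of the MET16 product. CHO2 and OPI3, the genes of the phospholipid methyltransferases, rose by 0.52 ± 0.0835 and 0.65 ± 0.0983, and BDS1, an arylsulfatase gene, by 0.65 ± 0.0865. PDC6, which encodes a pyruvate decarboxylase isozyme poor in sulfur amino acids, fell by 1.30 ± 0.127, and MXR1 and MXR2, the methionine sulfoxide reductase genes, by 0.58 ± 0.0805 and 0.42 ± 0.0793. At high inositol-choline 7 rose and 6 fell (18.0% and 14.8% of all genes), with TRR1 up by 0.96 ± 0.0733 and PDC6 down by 1.73 ± 0.127. Under nitrogen limitation 4 rose and 1 fell at low (4.72% and 5.01% of all genes) and 1 rose and 2 fell at high (2.17% and 1.98%).

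Under nitrogen limitation in the reference strain at low inositol-choline 12 of the 35 rose and 8 fell, where 25.1% of all genes were higher and 19.1% lower. OPT1, a gene for the uptake of glutathione and small peptides, rose by 2.59 ± 0.281 and IRC7, which encodes a beta-lyase that acts on cysteine conjugates, by 2.19 ± 0.263. HOM3 and HOM2, the genes of the first steps from aspartate, fell by 0.74 ± 0.0851 and 0.72 ± 0.170, while HOM6 rose by 0.38 ± 0.0536. The counts were 9 and 9 in the reference strain at high (31.4% and 20.9% of all genes), 6 and 10 in the mutant at low (15.3% in each direction), and 8 and 13 in the mutant at high inositol-choline (26.5% and 22.1%). MHT1, whose product makes methionine from S-methylmethionine and which lies next to MMP1 in the genome, fell in all 4 comparisons of limitation, by 1.67 ± 0.106 and 1.40 ± 0.106 in the reference strain and by 1.01 ± 0.106 and 1.10 ± 0.106 in the mutant. It was also higher in the N-limited mutant than in the N-limited reference strain, by 0.60 ± 0.106 and 0.42 ± 0.106. SAM4, which lies next to SAM3 and uses S-adenosylmethionine to make methionine, fell in 3 of the 4 comparisons of limitation in which SAM3 rose.

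For inositol-choline the 35 genes gave 0 rises and 0 falls in the C-limited reference strain by limma (7.85% and 6.96% of all genes, with 11 of the 35 at an unadjusted p under 0.05) and 3 rises and 6 falls in the C-limited mutant (10.2% and 13.2%). They gave 1 and 10 in the N-limited reference strain (16.6% and 14.9% of all genes) and 1 and 13 in the N-limited mutant (19.5% and 17.7%). OPI3, the gene of the last phospholipid methylation steps, fell by 1.15 ± 0.0983 in the C-limited mutant, by 0.72 ± 0.0983 in the N-limited reference strain and by 1.03 ± 0.0983 in the N-limited mutant. CHO2, of the first step, fell by 0.39 ± 0.0835 and 0.26 ± 0.0835 in the mutant under carbon and nitrogen limitation. YCT1, a cysteine transporter gene, was the gene that rose in the N-limited comparisons, by 0.62 ± 0.0899 and 0.80 ± 0.0899.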

How the data were processed

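The deposited values are log2 expression values of 10928 probe sets on 24 arrays, which the submitters' processing notes credit to PLIER. The sources used here give neither its version nor its background step or normalization, base 2 was assumed from the range of 4.82 to 13.25, and values were used as deposited. Probe sets were named through the platform annotation: 7244 carried 1 symbol, 1 several, and 3683 were not listed. Of these, 5498 matched S. cerevisiae, and the brightest probe set of each gene left 5449 genes. The background level of an array was the 95th percentile of 1746 probe sets named by the annotation that matched no S. cerevisiae gene. The same model called 0 to 10 of these 1746 in a comparison.

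One mean per group was fitted with limma 3.58.1 in R 4.3.3 (lmFit, eBayes, 16 residual and 18.77 total degrees of freedom), with 12 differences between pairs of groups and 6 interactions, and p-values were adjusted over the 5449 genes (Benjamini-Hochberg). The number of arrays limits the precision. The 33 genes, the 36 other genes listed (35 measured) and the tests were chosen with earlier results of these data known. All 33 could be named, values were given for the 5 largest called rises and falls of a comparison and for further called genes by step of the pathway, and the other genes were named by the smallest adjusted p of their set, up to 3 a set.

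Replicate numbers come from the titles. Deviations from the group means of same-numbered arrays correlated over genes at over 0.1 in every pair of the strain comparisons under nitrogen limitation (0.165, 0.313 and 0.405 at low, 0.901, 0.784 and 0.868 at high inositol-choline) and of the limitation comparison in the mutant at low (0.173, 0.461 and 0.392), so the counts of a blocked fit are given beside the main, unblocked ones there. Alternatives were quantile normalization, centring on the array median, a filter on dim genes, a fit to only the groups compared, the same with a replicate block, leaving out the arrays of low 5' signal, the 3' minus 5' signal as a covariate, array weights, leaving out the 6 arrays of unclear label, and leaving out each array. Sequences were not used here, and genome coordinates were used only to name neighbouring genes.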

Additional observations from a re-analysis of the deposited data

Results flagged for a closer look

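The values below are interactions called by limma, that is, effects that differed between the strains or limitations by a test of the difference itself. The difference between mutant and reference strain was set under nitrogen against carbon limitation, so that a negative value means a lower mutant-to-reference difference under nitrogen limitation. At low inositol-choline this gave -0.86 for SUL1, -0.61 for SUL2, -0.58 for MET2, -0.75 for MET3, -0.53 for MET8, -0.31 for MET10 and -0.49 for MET22. It gave -0.54 for SAH1, -0.58 for ADO1, -0.32 for CYS3 and -0.59 for CYS4, and was positive for STR3 at 0.86 and for MMP1 at 1.06. At high inositol-choline it gave -1.13 for SUL1, -0.48 for MET3, -0.81 for MET22 and -0.49 for SAH1, with 1.02 for STR3, 0.92 for MUP1 and 1.08 for MMP1. Leaving out single arrays ended the calls of SUL1, MET2, MET22 and CYS3 at low and of MUP1 at high inositol-choline. That of MET2 was lost for any of 19 arrays and that of MET22 for any of 10.

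SUL1, MET3, MET22, SAH1, STR3 and MMP1 were thus called at both levels of inositol-choline, which are separate arrays that share 1 estimate of the spread. The effect of high against low inositol-choline differed between the limitations for SAH1, at -0.54 in the reference strain and -0.49 in the mutant, and for MUP3, at 0.41 and 0.83. It differed for CYS4 in the reference strain, at -0.57, and between the strains under carbon limitation for CYS4, at -0.35. The call of MUP3 in the reference strain was lost on leaving out any of 18 arrays. That of CYS4 between the strains was lost for any of 16. Groups of 3 arrays were too small for a test of single outlying arrays.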

How the results depend on the processing

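Counts are of the 33 genes, with the main count first. Quantile normalization, centring and leaving out dim genes kept the counts within 1.5 times the main ones, except that the first pair gave 0 in place of 1 (CYS4) for the interaction of strain and inositol-choline under carbon limitation. For high against low inositol-choline in the C-limited reference strain (main 4), 17 genes were called on only the arrays compared, 17 with the replicate block, 19 without the pair of low 5' signal, 20 with the covariate, 21 with array weights and 8 without the 6 arrays of unclear label. In the same order the C-limited mutant (main 7) gave 23, 22, 19, 21 and 22. The N-limited reference strain (main 11) gave 0, 0, 16, 23 and 17 (13 and 9 at an unadjusted p under 0.05 for the zeros), and the N-limited mutant (main 11) gave 5, 0, 18, 21 and 24 (12 for the zero). Mutant against reference strain gave 26, 23, 26, 26 and 26 under carbon limitation at low (main 18) and 23, 24, 21, 23 and 23 at high inositol-choline (main 12). Under nitrogen limitation it gave 13, 15, 6, 8 and 14 at low (main 2) and 0, 3, 8, 8 and 9 at high (main 2). Nitrogen against carbon limitation gave 28, 28, 28, 28 and 29 in the reference strain at low (main 18), 7, 5, 22, 24 and 23 at high (main 13), 24, 25, 20, 20 and 24 in the mutant at low (main 10) and 10, 9, 20, 19 and 22 at high (main 16). The interactions of strain and inositol-choline gave 6, 6, 7, 3 and 10 under carbon (main 1) and 0, 0, 5, 4 and 9 under nitrogen limitation (main 0). Those of limitation and inositol-choline gave 1, 0, 8, 5 and 22 in the reference strain (main 3, with 8 at an unadjusted p under 0.05 for the zero) and 4, 2, 11, 10 and 12 in the mutant (main 2). Those of strain and limitation gave 27, 26, 23, 22 and 27 at low (main 13) and 4, 6, 18, 21 and 19 at high (main 7). The share of all genes called moved in these fits as well. For inositol-choline in the C-limited reference strain it was 14.8% (main), then 34.2%, 34.5%, 48.1%, 45.1%, 54.5% and 18.5%. In the N-limited reference strain it was 31.5%, then 2.57%, 0.257%, 43.9%, 44.8% and 49.8%. For the strains under nitrogen limitation at low inositol-choline it was 9.73%, then 45.9%, 51.0%, 28.5%, 25.3% and 49.7%. The replicate block left 2 residual degrees of freedom in pairs of groups. The shifts are thus not particular to the 33 genes, and their cause was not tested.

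On leaving out 1 array at a time the counts for inositol-choline ran from 1 to 11 and 9 to 14 in the C- and N-limited reference strain, and 4 to 9 and 8 to 17 in the mutant. For the strains they ran from 15 to 21 and 11 to 17 under carbon, and 2 to 4 and 2 to 6 under nitrogen limitation. For limitation they ran from 15 to 23 and 12 to 15 in the reference strain, and 7 to 11 and 14 to 20 in the mutant. The interactions ran from 0 to 2 and 0 to 2 (strain and inositol-choline), 2 to 7 and 2 to 6 (limitation and inositol-choline), and 9 to 16 and 6 to 12 (strain and limitation). Of the 150 called differences and interactions of single genes, 111 kept their call whichever array was left out. All 150 were called in the same direction without the pair of low 5' signal and with array weights. Of the 150, 9 lost their call with quantile normalization, 9 with centring, 9 with the covariate, 36 on only the arrays compared and 42 with the replicate block, all in the same direction. One reversed: SAM2 in the N-limited reference strain at high against low inositol-choline, at 0.01 with the covariate. Each gene had 1 probe set, so no other probe set could be tried.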
